A study of Mus musculus with 4 samples.

Results

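The genes described here are 10 mouse regulators of mitosis: the entry kinases Cdk1, Plk1 and Aurka, the chromosomal passenger complex genes Aurkb, Incenp, Birc5 and Cdca8, and the spindle checkpoint kinases Bub1, Bub1b and Ttk. They were chosen by symbol, as every probe whose platform annotation names one of them, which gave 15 of the 24613 probes and 10 of the 15967 named genes in the deposited table. Cdk1, Plk1 and Cdca8 had 2 probes each, Birc5 had 3, and the others had 1.

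RNA was measured on 4 Illumina bead arrays, with 1 array per sample. T23 and T1525, with 1 array each, are lines derived from prostate tumors of C57Bl/6 mice with the TRAMP genotype, labelled 30 weeks of age. TRAMP is a model in which a prostate-directed probasin promoter drives SV40 tumor antigens in epithelium. Normal prostate came from wild-type C57Bl/6 mice labelled 18 weeks of age, with 2 arrays, called normal 1 and normal 2 here. All 4 samples share the strain and the organ. Genotype, tumor, age and the use of a line in place of whole tissue go together with the groups and cannot be told apart. The labels do not state if the normal arrays are from different mice, and each line is 1 sample with no second culture. The p-values therefore rest on the spread between single arrays alone. In the tumor class that spread lies between different lines, and in the normal class it may be technical.

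Cells enter mitosis when Cdk1, bound to a B-type or A-type cyclin, is freed of inhibitory phosphate, with Plk1 and Aurka feeding into that switch and building the spindle poles. The chromosomal passenger complex then moves from centromeres to the midzone. Its kinase Aurkb is held by the scaffold Incenp and positioned by Birc5 (survivin) and Cdca8 (borealin), and it corrects faulty attachments of chromosomes to the spindle. Ttk (Mps1), Bub1 and Bub1b (BubR1) run the checkpoint that delays anaphase until every kinetochore is attached. Messages for many of these proteins build up late in the cell cycle, and resting tissue holds few cells in that phase.

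Promoters are shown first because many late cell cycle promoters are known to carry a CHR element beside CCAAT boxes. RefSeq windows of 300 bases, from 250 before to 50 after a RefSeq start in build GRCm38.p6, were given for 8 of the 10 genes, not for Aurkb or Incenp. For Aurka, Bub1b and Ttk that start is not the outermost one of the gene record. Each strand was searched for the CHR letters TTTGAA, the NF-Y box CCAAT, and the E2F letters TTTCCCGC, TTTGGCGC, TTTCGCGC and TTTGCCGC. The 4 windows below belong to entry kinases and a checkpoint kinase with a CHR match, written 5′ to 3′ along the gene's strand. Capitals mark the matches, and a match on the opposite strand appears as its reverse complement, so that CCAAT reads ATTGG. Cdk1 lies at chr10:69352863-69353162 on the minus strand, Plk1 at chr7:122159185-122159484 on the plus strand, Aurka at chr2:172370521-172370820 on the minus strand and Bub1b at chr2:118597961-118598260 on the plus strand.
Cdk1: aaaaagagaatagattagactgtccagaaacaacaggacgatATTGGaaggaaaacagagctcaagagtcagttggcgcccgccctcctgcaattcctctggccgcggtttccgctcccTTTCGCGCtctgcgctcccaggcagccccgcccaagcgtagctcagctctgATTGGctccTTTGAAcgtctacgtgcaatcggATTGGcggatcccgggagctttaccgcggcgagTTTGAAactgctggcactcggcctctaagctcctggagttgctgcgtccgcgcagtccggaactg
Plk1: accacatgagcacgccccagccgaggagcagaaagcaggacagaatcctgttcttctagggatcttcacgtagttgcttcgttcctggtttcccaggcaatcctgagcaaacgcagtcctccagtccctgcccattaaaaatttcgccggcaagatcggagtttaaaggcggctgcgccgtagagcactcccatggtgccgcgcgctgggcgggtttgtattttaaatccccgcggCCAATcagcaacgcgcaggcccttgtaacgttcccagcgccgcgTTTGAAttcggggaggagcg
Aurka: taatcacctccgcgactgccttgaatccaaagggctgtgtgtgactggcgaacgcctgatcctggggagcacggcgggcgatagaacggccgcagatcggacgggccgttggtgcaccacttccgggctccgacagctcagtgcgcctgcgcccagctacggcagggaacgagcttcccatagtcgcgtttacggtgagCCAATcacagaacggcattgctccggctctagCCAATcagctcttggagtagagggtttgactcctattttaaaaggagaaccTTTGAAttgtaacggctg
Bub1b: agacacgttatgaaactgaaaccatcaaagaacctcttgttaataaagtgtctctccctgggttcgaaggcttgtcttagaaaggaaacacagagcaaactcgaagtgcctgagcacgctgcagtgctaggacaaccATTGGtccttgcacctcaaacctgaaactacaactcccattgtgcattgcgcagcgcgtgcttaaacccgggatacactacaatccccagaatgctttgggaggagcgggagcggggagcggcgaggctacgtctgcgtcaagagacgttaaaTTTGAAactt

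The CHR letters occurred in 6 of the 8 windows, those of Cdk1, Plk1, Aurka, Cdca8, Bub1b and Ttk, and in 17.9% of all 32851 RefSeq windows. CCAAT occurred in 7 of the 8, against 37.4% of all windows, and both together in 6 of the 8, against 6.95%. Cdk1 held 2 CHR matches, which begin 71 and 15 bases before the gene start, 3 CCAAT matches, and the only E2F match of the 8 windows; 2.26% of all windows hold one. In Plk1, Aurka, Cdca8 and Bub1b the CHR letters begin 31, 33, 14 and 41 bases after the start, and in Cdca8 the CHR and a CCAAT match share 1 base. The Birc5 window held none of these letters, and that of Bub1 held 2 CCAAT matches and no match to TTTGAA, the only CHR letters searched. These matches describe the letters in a window and do not show binding of a factor. Their part in the rise of these genes was not tested.

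**Figure D1:**
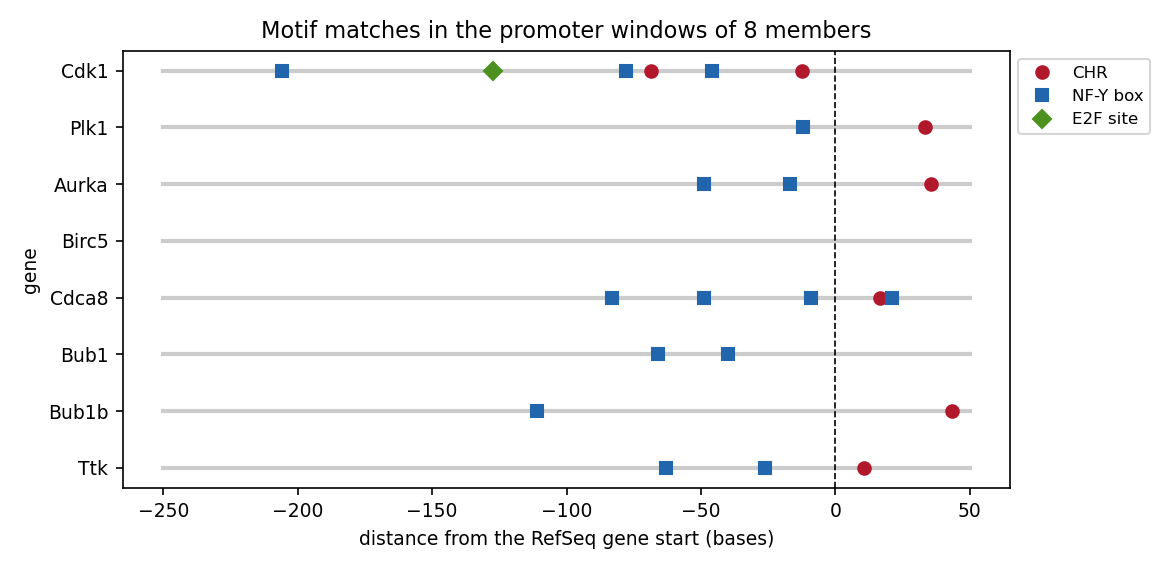
Position of motif matches, in bases from the annotated RefSeq gene start (dashed line), in the 300-base windows of 8 genes; each symbol is 1 match on either strand and the NF-Y box is CCAAT. Matches to CHR appear in 6 of the 8 windows, and Birc5 has no match of any kind.

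Values are deposited normalized intensities on the log2 scale, and a probe was taken as above background where it exceeded 6.69, an intensity of 103. Between 50.8% and 51.0% of all probes lay above this threshold per array, and precision is limited by the small number of arrays. Classes were compared with limma over the 15767 probes above background on at least 1 array, with Benjamini-Hochberg adjustment and a threshold of 0.05. The labels were checked against cell type markers. The cycling markers Top2a, Pcna, Mcm2, Mcm5 and Rrm2 were higher in the lines, 5 of 5. Of 6 luminal markers 4 were lower, the secretory genes Pbsn, Tgm4, Spink1 and Msmb, which were at background in both lines. The summed luminal intensity was 850 in T23 and 26336 in T1525 against 180339 and 124967 in normal 1 and normal 2. In T1525 it was almost all from the keratins Krt8 (14.12) and Krt18 (13.01), which in T23 read 5.98, at background, and 8.94. Of 4 basal markers 2 were lower; Trp63 was above background in T23 (8.24) and not in T1525 (6.06), and Krt14 read 5.96 in T23 and 13.72 in T1525. The summed fibroblast and matrix markers were 29033 in T23 and 489 in T1525, against 21627 and 43576 in the normal arrays. These markers split in T23: Col1a1, Col3a1 and Pdgfra exceeded both normal arrays, Dcn was below both, and Lum was at background. Of the smooth muscle markers Acta2 read 14.72 in T23 and was at background in T1525, Actg2 read 8.10 in T23 against 15.52 and 15.54 in the normal arrays, and Myh11 and Des were at background in both lines. Endothelial markers summed to 375 and 355 in the lines, against 4042 and 9732. Leukocyte markers were at background in both lines and summed to 7822 and 38302 in the normal arrays. The neuroendocrine marker Syp read 6.31 in T23, at background, and 6.79 in T1525, against 9.45 and 9.66 in the normal arrays. Syp was called lower in the lines (limma, adjusted p = 0.0191). Chga was above background in T1525 alone, at 6.85. The part of these markers in the results was not tested.

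Across the 10 genes, 8 rose in the tumor lines: Cdk1, Plk1, Aurka, Aurkb, Incenp, Birc5, Cdca8 and Bub1b. Fitted differences of these genes ran from 3.43 for Bub1b to 4.88 for the Birc5 probe with the highest mean, on the log2 scale. By probe, 10 of the 12 tested rose and none fell, where limma called 5.64% of all tested probes higher and 5.13% lower. Both lines lay above both normal arrays in 39.8% of all tested probes, a wider set that needed only 1 array above background. The same held for all 9 member probes above background on every array. The other 3 tested probes, of Cdca8, Ttk and Cdk1, were kept through the lines alone, so their order is no result. Ttk and 1 of the Cdk1 probes did not pass the test, and Bub1 and second probes for Plk1 and Cdca8 were at background on all 4 arrays and were not tested. The median difference of the 9 genes with a tested probe was 4.19, and that of all 10903 genes tested was 0.11. In bulk RNA, fewer cells of a type and less RNA per cell cannot be told apart. All 8 calls ended without normal 1 or without normal 2, at adjusted p between 0.120 and 0.188 and between 0.161 and 0.243; limma then called 0 probes of the whole array, although 2547 and 2342 had an unadjusted p under 0.05 (4990 in the fit of 4 arrays). The differences of these genes hardly moved, as the plot of left-out arrays shows.

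**Figure D2:**
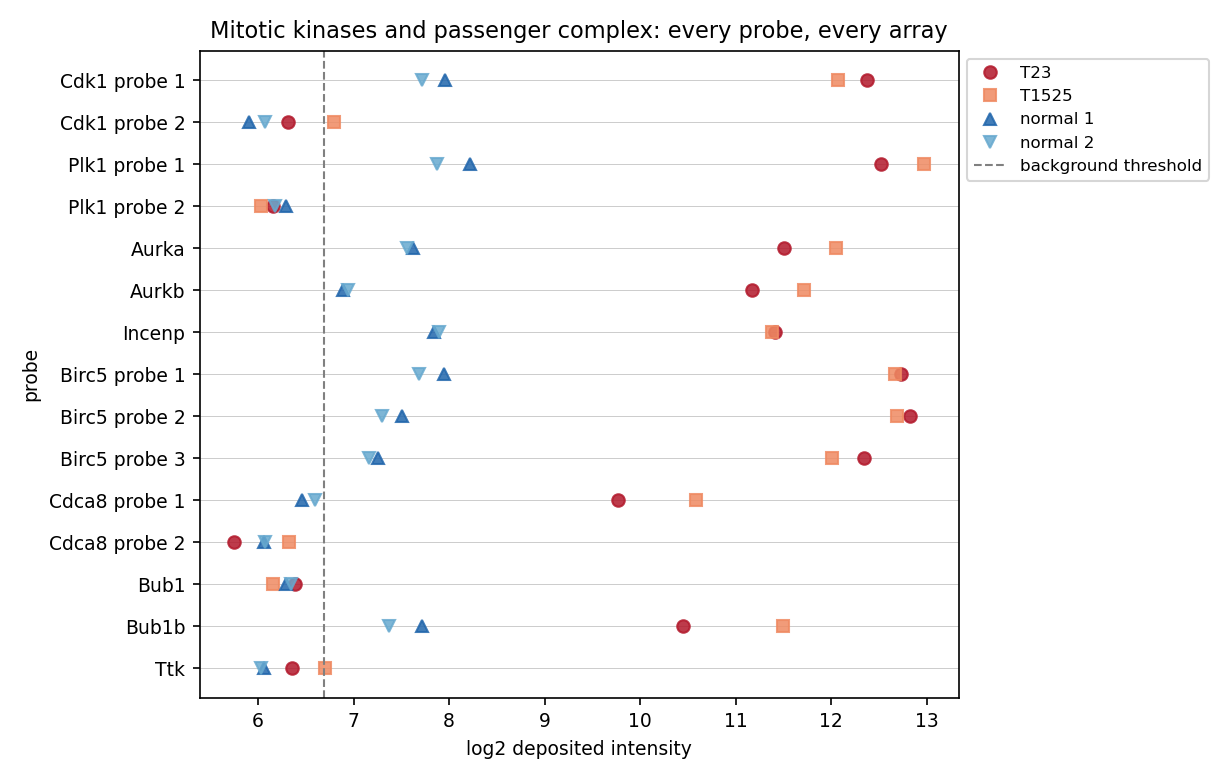
Log2 deposited intensity (horizontal axis) of each of the 15 probes on each of the 4 arrays, with the background threshold of 6.69 as a dashed line. In 10 probes both lines stand far to the right of both normal arrays, and 5 probes lie at or near background.

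Cdk1, the kinase whose activity defines entry into mitosis, read 12.38 in T23 and 12.08 in T1525, against 7.96 and 7.72 in normal 1 and normal 2 on its brighter probe. The lines did not overlap the normal arrays, and the gap within either pair was at most 0.30. The class means were 12.23 ± 0.21 (SD, n = 2) and 7.84 ± 0.17 (SD, n = 2), a 20.9-fold rise with a 95% interval of 12.9-fold to 34.0-fold (limma, SE 0.25, adjusted p = 0.0107). The other Cdk1 probe read 6.32, 6.79, 5.91 and 6.08 in the same order. Only T1525 passed the background threshold there, and the difference of 0.56 did not pass (limma, adjusted p = 0.252). The probes of Cdk1 thus disagree, and no sequence of either probe was used here to say which transcripts they read.

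Plk1, the Polo kinase of spindle poles, kinetochores and cytokinesis, read 12.52 in T23 and 12.98 in T1525, against 8.22 and 7.88 in normal 1 and normal 2. The ranges of the classes stood 4.30 apart on the log2 scale. Plk1 rose 26.0-fold, with a 95% interval of 14.9-fold to 45.5-fold (limma, SE 0.29, adjusted p = 0.0118), and held rank 7 of all tested probes by the size of the rise. Its second probe stayed between 6.03 and 6.29 on all arrays, at background. Among all genes with several probes and at least 1 called higher, 82 of 294, or 27.9%, likewise had another probe at background on every array, and among the members Plk1 and Cdca8 did, 2 of the 4 genes with several probes.

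Aurka, the Aurora kinase of centrosomes and spindle poles, read 11.51 in T23 and 12.05 in T1525, against 7.62 and 7.56 in normal 1 and normal 2. Both lines were above both normal arrays, with T1525 higher than T23 by 0.54. The rise was 18.2-fold, with a 95% interval of 10.5-fold to 31.6-fold (limma, SE 0.29, adjusted p = 0.0123). All 3 entry kinases therefore rose, with a median difference of 4.39.

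Of the chromosomal passenger complex genes, 4 of 4 were called higher in RNA, with a median difference of 4.09. Among them Cdca8 was kept through the lines alone, and with values at background raised to the threshold the median was 4.03. Aurkb, the kinase of the complex, read 11.17 in T23 and 11.71 in T1525, against 6.89 and 6.95 in normal 1 and normal 2. The normal values lay just above the background threshold, which limits the fold, and the lines were far above them. Aurkb rose by 4.52 on the log2 scale, with a 95% interval of 3.73 to 5.32 (limma, SE 0.29, adjusted p = 0.0118).

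Incenp, the scaffold that binds and activates Aurkb, read 11.42 in T23 and 11.38 in T1525, against 7.84 and 7.89 in normal 1 and normal 2. Values within each class nearly coincided, 0.04 apart in the lines and 0.05 in the normal arrays. The rise of Incenp was 11.5-fold, with a 95% interval of 7.64-fold to 17.4-fold (limma, SE 0.22, adjusted p = 0.0114).

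Birc5, the survivin subunit that brings the complex to centromeres, was read by 3 probes. The probe annotated to a transcript variant of its own read 12.73 in T23 and 12.67 in T1525, against 7.95 and 7.69 in normal 1 and normal 2. The next read 12.83, 12.69, 7.50 and 7.30 in that order, and the last 12.34, 12.01, 7.26 and 7.17. All of them separated the classes by over 4.7 on the log2 scale between the nearest arrays. The rises were 29.5-fold, 40.9-fold and 31.3-fold, with 95% intervals of 4.24 to 5.53, 4.72 to 5.99 and 4.29 to 5.64 on the log2 scale (limma, adjusted p = 0.00898 for each). By the size of the rise these 3 probes held ranks 6, 3 and 5 among all tested probes.

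Cdca8, the borealin subunit, read 9.77 in T23 and 10.58 in T1525, against 6.47 and 6.59 in normal 1 and normal 2. Both normal arrays were at background, so the lines were at least 11.2-fold higher (limma, fitted difference 3.65, SE 0.36, adjusted p = 0.0197, which belongs to the fitted difference). Its other probe ranged from 5.75 to 6.33 and was at background on all arrays.

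Of the checkpoint kinases Bub1b alone was measured well above background, and it was called. Bub1b, the BubR1 protein that holds back the anaphase-promoting complex, read 10.45 in T23 and 11.49 in T1525, against 7.71 and 7.37 in normal 1 and normal 2. The lines did not overlap the normal arrays, but stood further apart from each other than for any other member probe. Bub1b rose 10.8-fold, with a 95% interval of 2.21 to 4.65 on the log2 scale (limma, SE 0.44, adjusted p = 0.0288). Its fold was 15.5 without T23 and 7.48 without T1525.

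Ttk, the kinase that starts checkpoint signalling at unattached kinetochores, read 6.35 in T23 and 6.70 in T1525, against 6.06 and 6.03 in normal 1 and normal 2. T1525 alone reached the background threshold, by a margin of less than 0.02. The fitted difference of 0.48, with a 95% interval of -0.20 to 1.17, did not pass (limma, SE 0.25, adjusted p = 0.266). Bub1, the kinase that marks centromeric histone H2A, read 6.39, 6.15, 6.29 and 6.34 in T23, T1525, normal 1 and normal 2. Its probe was at background throughout, so these arrays say nothing of its level.

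**Figure D3:**
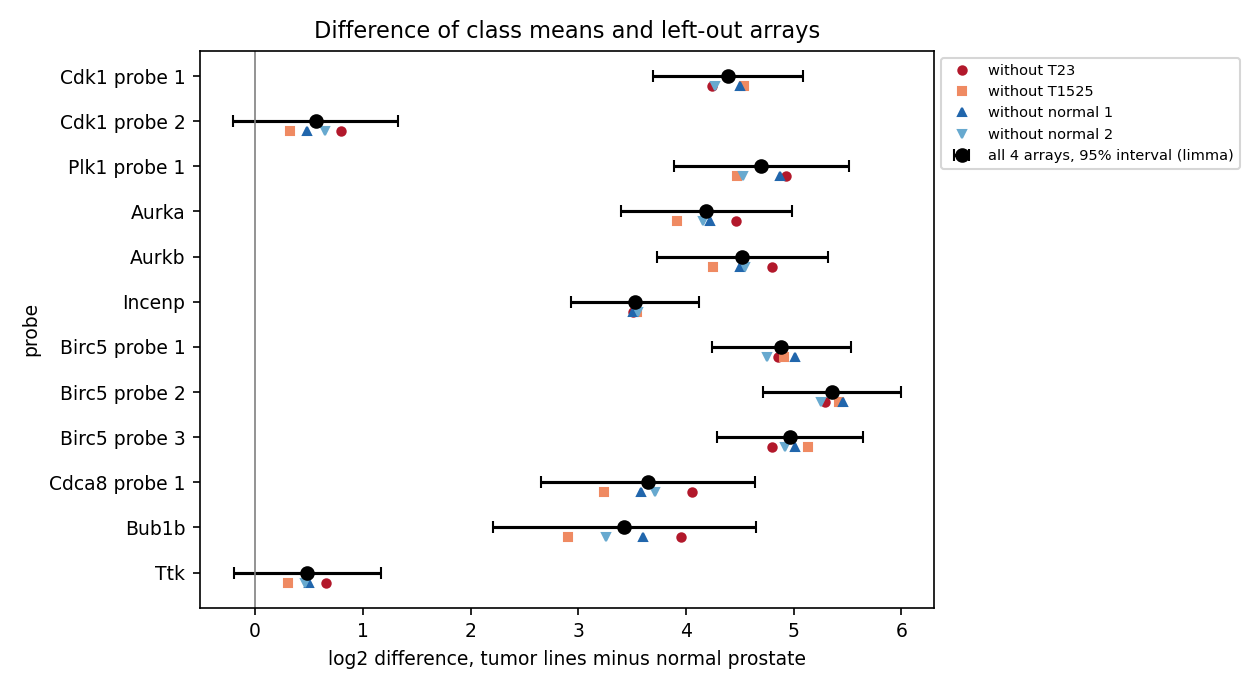
Log2 difference, tumor lines minus normal prostate, of the 12 tested probes (black, with limma's 95% interval) and the same difference with each array left out in turn (coloured). The intervals of 10 probes lie wholly above 2, those of Ttk and the second Cdk1 probe include 0, and the left-out values stay inside the intervals of the full fit.

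Among the called probes, the 3 largest rises fitted on all arrays were those of Birc5, though without T23 Plk1 (4.93) exceeded 2 of them (4.85 and 4.80). The 95% interval of Incenp, 2.93 to 4.12 on the log2 scale, lay below those of all 3 Birc5 probes, while the wider interval of Bub1b overlapped 2 of them. For Cdca8 only a lower bound is known. Differences between genes were not tested. Levels of different probes were not set against each other, since probes differ in brightness.

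Between the lines, 1 of the 12 tested probes differed by 2-fold or more, that of Bub1b, 2.07-fold higher in T1525. Over all tested probes T1525 was at least 2-fold higher in 10.3% and T23 in 9.98%. With 1 array a line this has no test. Plk1, Aurka, Aurkb and Cdca8 were also higher in T1525, by 0.46, 0.54, 0.54 and 0.81 on the log2 scale. On the probes with the highest mean, Cdk1, Incenp and Birc5 were higher in T23, by 0.30, 0.04 and 0.06. The other Birc5 probes were higher in T23 by 0.14 and 0.33. The second Cdk1 probe, at background in T23, had a T23 minus T1525 difference of -0.47. For comparison, the normal arrays stood apart by 0.34 for Plk1, 0.06 for Aurka, 0.05 for Aurkb, 0.13 for Cdca8, 0.34 for Bub1b, 0.23 for Cdk1 and 0.26 for Birc5. Set against the normal mean, Cdk1 was 23.3-fold higher in T23 and 18.9-fold in T1525, and Bub1b was 7.48-fold higher in T23 and 15.5-fold in T1525; these comparisons share their normal arrays.

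**Figure D4:**
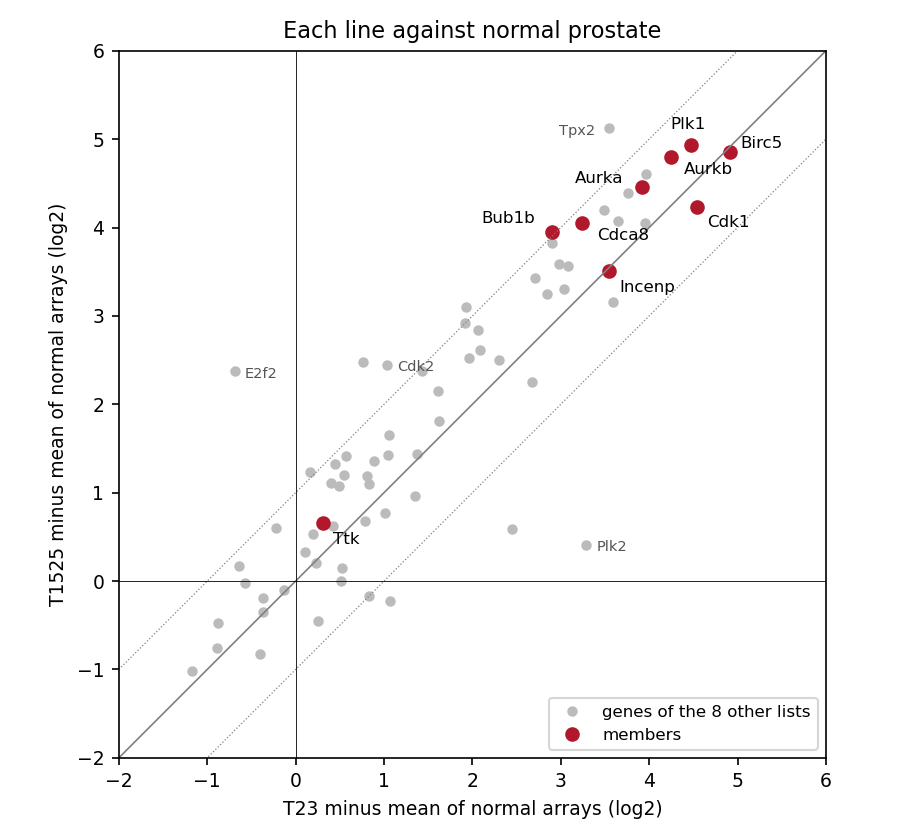
Log2 difference from the mean of the normal arrays in T23 (horizontal) and T1525 (vertical) for the 9 members with a tested probe (red) and the genes of the 8 other lists (grey); the solid diagonal marks equal values and the dotted lines a 2-fold difference between the lines. All members but Bub1b lie within the dotted lines, Bub1b just outside on the T1525 side, while Plk2 stands out on the T23 side and E2f2 on the T1525 side.

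The 5 genes whose values over the 4 arrays lay nearest to the median profile of the members, by Euclidean distance of mean-centred log2 values, were Troap (0.15), Mcm5 (0.23), Fignl1 (0.24), Mad2l1 (0.25) and Prc1 (0.27). The members themselves lay between 0.13 for Aurka and 0.85 for Bub1b from that profile, apart from Ttk at 3.64. Troap, a spindle-associated protein, read 10.46 in T23, 11.06 in T1525 and 6.66 and 6.55, both at background, in the normal arrays. Prc1, which bundles midzone microtubules, read 13.26, 14.02, 9.63 and 9.45 in the same order.

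The partners of these kinases were looked at through lists of other genes in their pathways. In the 5 lists of mitotic partners 35 of 49 genes were measured, and 16 of these, or 45.7%, rose and none fell, with a median difference of 1.84. Among the 16, Ccna2, Cdc25c, Melk and Ndc80 were at background in both normal arrays, so they were kept through the lines alone. Of all 10903 genes tested, 5.30% rose and 6.09% fell. With a line left out, 1 line array stands against the normal arrays, so from those fits only the size of a difference is given. T1525 was above T23 in 29 of the 35, or 82.9%, and in 51.7% of all 10903 genes. None of the genes in any list was called without normal 1 or without normal 2.

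Among the partners of Cdk1 and its switch, 5 of 10 genes were measured, 2 rose and the median difference was 0.99. Cdc25c, a phosphatase that activates Cdk1, read 9.33 in T23 and 10.26 in T1525, against 6.54 and 6.32 in normal 1 and normal 2, at least 8.58-fold higher in the lines (limma, adjusted p = 0.0254 for the fitted difference). Ccna2, cyclin A2, read 7.88, 8.87, 5.88 and 6.04, at least 3.21-fold higher (limma, adjusted p = 0.0442). Its call ended with cyclic loess (adjusted p = 0.0606), an offset before the log (0.0605) and values at background raised to the threshold (0.103), so the list then had 1 rise. Ccnb2, Cks1b and Cks2 were at background on every array, and Ccnb1 and Pkmyt1 were not analysed here.

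All 10 Polo and Aurora relatives and cofactors were measured, of which 6 rose, with a median of 2.37. The count was 5 with values at background raised to the threshold. Tpx2, the spindle factor that activates Aurka, read 10.76 in T23 and 12.34 in T1525, against 7.29 and 7.15 in normal 1 and normal 2. It rose 20.1-fold (limma, adjusted p = 0.0318), or 34.8-fold without T23 and 11.6-fold without T1525, and was 2.99-fold higher in T1525 than in T23. Sgo2a, a shugoshin that protects centromeric cohesin, rose by 3.86 (limma, adjusted p = 0.0123). Haspin, the histone H3 kinase whose mark recruits the passenger complex, rose 5.28-fold (limma, adjusted p = 0.0191), and Bora, a cofactor in the activation of Plk1 by Aurka, rose 5.08-fold (limma, adjusted p = 0.0423); both are named for their roles after their values were seen. Plk2, a Polo kinase induced by stress, was highest in T23, as was Plk3, with 11.85 in T23 against 8.97 in T1525, 8.45 in normal 1 and 8.68 in normal 2 for Plk2. Plk2 was 7.35-fold higher in T23 than in T1525, and the 3.59-fold class difference did not pass (limma, adjusted p = 0.299). Without T1525 it was 9.73-fold, and without T23 1.33-fold.

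Of the 8 other mitotic kinases 5 were measured and 2 rose, with a median of 1.16, or 0.15 once values at background were raised to the threshold. Pbk, a mitotic kinase, read 10.37 in T23 and 11.00 in T1525, against 6.80 in normal 1 and a background value of 6.42 in normal 2 (limma, difference 4.07, adjusted p = 0.016). Melk, another kinase of dividing cells, was at least 6.04-fold higher, with both normal arrays at background (limma, adjusted p = 0.0171). Nek2, Nek6 and Nek7 were at background on every array.

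Among checkpoint and kinetochore partners 9 of 13 genes were measured, 4 rose and the median was 1.35. The count was 3 under cyclic loess or with values at background raised to the threshold. Mad2l1, the Mad2 protein that works with Bub1b against Cdc20, read 11.04 in T23 and 11.68 in T1525, against 7.18 and 6.98 in normal 1 and normal 2, a rise of 4.28 (limma, SE 0.32, adjusted p = 0.0137). Spc24, a subunit of the Ndc80 complex, rose by 3.84 (limma, adjusted p = 0.0187). Zwint, a kinetochore protein that binds Zw10, was 2.45-fold higher in T23 than in T1525, and its class difference of 0.42 did not pass (limma, adjusted p = 0.588). That difference was 1.07 without T1525 and -0.22 without T23. Dsn1, Nuf2 and Cenpe were at background, and Knl1 was not analysed here.

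In the anaphase-promoting complex and mitotic exit list, 6 of 8 genes were measured, 2 rose and the median was 1.60. Cdc20, the activator that the checkpoint restrains, read 11.81 in T23 and 11.91 in T1525, against 8.24 and 7.48 in normal 1 and normal 2, a 16.1-fold rise (limma, SE 0.34, adjusted p = 0.0171). Ube2s, a ubiquitin-conjugating enzyme of the complex, rose 4.73-fold (limma, adjusted p = 0.03). Ube2c, which primes its substrates, stood 2.26-fold higher in T1525 than in T23 and did not pass (limma, adjusted p = 0.0516). Both normal arrays were at background for Ube2c, so it was kept through the lines alone. With values at background raised to the threshold its class difference was 3.29-fold and did not pass (limma, adjusted p = 0.126).

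Families related to members by sequence held few genes, and at the shares of all genes given above a count of 0 says nothing particular about them. Of 4 measured inhibitor of apoptosis relatives of Birc5, 0 were called, with a median of -0.17. Birc2, an inhibitor of apoptosis outside mitosis, read 7.94 in T23 and 8.75 in T1525, against 8.71 and 8.46 in normal 1 and normal 2 (limma, adjusted p = 0.676). Of 9 measured other cyclin-dependent kinases, 0 were called, with a median of 0.22. The median was -0.09 under cyclic loess and -0.11 without T23. A single gene was called lower under cyclic loess and with no filter on dim probes. That count also held with an offset before the log and with values at background raised to the threshold. Cdk2, the kinase of S phase entry, read 11.78, 13.19, 10.76 and 10.73 in the same order (limma, difference 1.74, adjusted p = 0.121), with T1525 2.66-fold above T23. Its 3.34-fold difference was 5.44-fold without T23 (adjusted p = 0.00895) and 2.05-fold without T1525 (adjusted p = 0.0391), called in both fits. With 2 arrays a class, a gene that missed the threshold is not shown to be level.

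Regulators of late cell cycle genes had 14 of 21 measured, of which 6 rose, with a median of 1.51. Among the 6, E2f7 and Nfya were at background in both normal arrays, so they were kept through the lines alone. With values at background raised to the threshold the median was 1.23. The count of rises was 5 under cyclic loess, with an offset before the log or with values at background raised to the threshold. E2f1, an activator of S phase genes, read 10.95 in T23 and 11.56 in T1525, against 8.10 and 7.85 in normal 1 and normal 2, a 9.74-fold rise (limma, SE 0.31, adjusted p = 0.0192). Foxm1, a factor of G2 and M phase genes, read 9.46, 10.17, 6.78 and 6.71, an 8.39-fold rise (limma, SE 0.33, adjusted p = 0.0223), with its normal values close to background. E2f2 read 8.09 in T23 and 11.15 in T1525, on either side of 8.87 and 8.69 in the normal arrays, and its class difference did not pass (limma, adjusted p = 0.622). That difference was 2.37 without T23 and -0.69 without T1525. T1525 was above T23 in 13 of the 14.

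**Figure D5:**
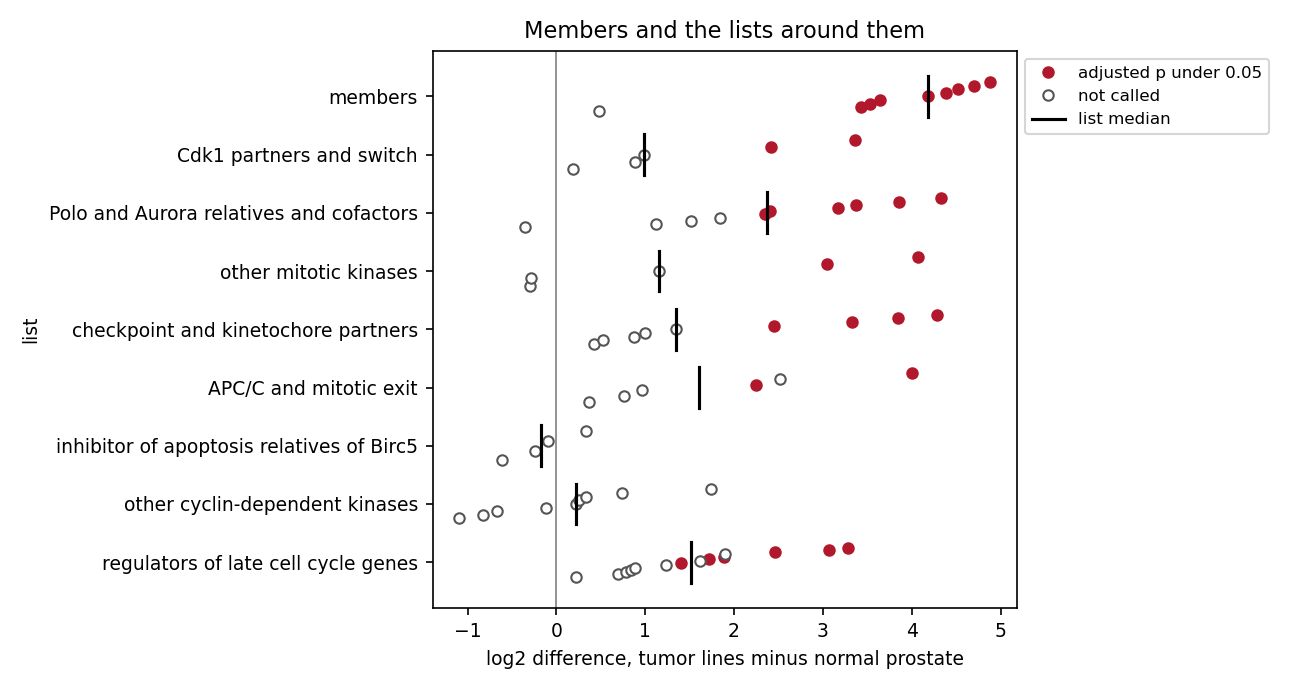
Log2 difference, tumor lines minus normal prostate, of each measured gene (points) in the members and 8 lists around them, filled where limma's adjusted p was under 0.05, with the list median as a bar. The members' median is 4.19, the medians of the 5 partner lists lie between 0.99 and 2.37, and the relatives of Birc5 and the other cyclin-dependent kinases are spread around 0 with no filled point.

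The cycling markers moved with the members, with a median difference of 3.05, from 2.69 for Pcna, the DNA polymerase clamp, to 4.27 for Top2a, which untangles chromosomes. Their summed intensity was 22112 in T23 and 27438 in T1525, against 2049 and 1860 in the normal arrays. Their part in the members' rise was not tested. Scaling by cyclic loess moved the median of all tested probes from 0.19 to -0.04 and the higher share of all calls from 52.4% to 36.4%, and all 8 members stayed called.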

How the data were processed

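Illumina bead arrays measured RNA of 2 tumor lines and 2 normal prostate samples. The submitters' processing notes name BeadStudio; no version or method of normalization is given there. All results rest on the linear normalized intensities that the authors deposited. A further deposited table holds 8 per-sample columns with only slide positions as names, which cannot be tied to samples by the labels and were not used.

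Deposited intensities were analysed as log2 values. The background threshold was the mode of the log2 values (6.12) plus the one-sided 0.01 quantile of a Gaussian whose SD came from the values left of the mode (0.247). The lines were compared with normal prostate in limma 3.58.1 (R 4.3.3), two-sided, with 2 residual and 2.07 prior degrees of freedom. A gene with several probes was represented in lists by the one with the highest mean. Values at background were set to the threshold for an at-least fold. The smallest exact permutation p that 2 against 2 arrays allow is 0.333, so none is given.

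Beside the members, the text names per list the 2 called genes with the largest rise or fall and the gene with the largest difference between the lines, plus the 5 nearest profiles. Members and lists were chosen with earlier results of these data known, and their counts are descriptions. Gene symbols came from the platform's annotation, and promoter sequences from RefSeq, GRCm38.p6. The fit was tested on simulated data. Figures used matplotlib 3.10.9 in Python 3.11.15. Alternatives changed the scaling, the filter, the background tail, an offset, the variance prior, values at background and each array.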

Additional observations from a re-analysis of the deposited data

Results flagged for a closer look

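In E2f2, Birc2, Zwint, Krt8 and Krt14, none of them a member, 1 line lay above both normal arrays and the other below both. Other genes of the lists and markers did so too, among them Cdc25a, with T1525 above, and Col1a1, Col3a1 and Pdgfra, with T23 above. The differences were not tested, since each line has 1 array. E2f2 was lower in T23 than in T1525 (log2 difference -3.06), with T23 below the normal arrays and T1525 above them. Birc2 went the same way, with a difference of -0.81, although T1525 (8.75) lay only just above normal 1 (8.71). Zwint went the other way, at 1.29, with T23 above and T1525 below. The epithelial keratins Krt8 and Krt14 were at background in T23 and above both normal arrays in T1525, with differences of -8.14 and -7.76, which are set in part by the background; T1525 exceeded normal 2 by little for Krt8 (14.12 against 14.06).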

How the results depend on the processing

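The count of members called stayed at 8 under median scaling, cyclic loess, no filter on dim probes, a threshold on at least 2 arrays, a looser or stricter background tail, an offset of 50 before the log, a prior with trend and values at background set to the threshold. Leaving out each array gave 0 to 8 members called, 8 without either line and 0 without either normal array, where 1 residual degree of freedom was left and the lone array was assumed to vary like the other class. The count of member probes 2-fold or more apart between the lines was 1 in every alternative run for it, which leave out no array. The alternatives for lists and other named genes were added after the data were seen. There 3 differences turned direction, none called with all arrays: Birc2 from -0.24 to 0.17 without T23 (-0.64 without T1525), Zwint from 0.42 to -0.22 without T23 (1.07 without T1525), and E2f2 from 0.84 to -0.69 without T1525 (2.37 without T23). Each of these fits holds 1 line array, so the turns have no test. The cause was not tested. No paired analysis was possible because the labels link neither line to a normal array. Signal over background limits Ttk, Bub1 and the normal values of Cdca8 and Aurkb, and 2 arrays a class limit every test.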

Other observations

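Among genes chosen after their values were seen, Plk3, a stress-responsive Polo kinase, read 10.57 in T23 and 8.72 in T1525, against 7.44 and 8.80 in normal 1 and normal 2, so T1525 lay within the range of the normal arrays. Mybl2, the B-Myb factor of late cell cycle genes, read 7.20 in T23 and 8.92 in T1525, against 6.36 and 6.53, both at background, in the normal arrays. Plk4, the kinase of centriole duplication, was called 10.4-fold higher in the lines (limma, adjusted p = 0.0148) and, unlike most partners, was higher in T23 than in T1525, by 0.43 on the log2 scale. Cdk10 read 10.01 and 10.17 in the lines and 11.22 and 11.15 in the normal arrays, a difference of -1.09 that did not pass (limma, adjusted p = 0.0588).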
